A study of Mus musculus with 54 samples.

Results

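The Toll-like receptor genes of the mouse macrophage were followed through 15 conditions. They were chosen by symbol, as Tlr1, Tlr2, Tlr3, Tlr4, Tlr5, Tlr6, Tlr7, Tlr8, Tlr9 and Tlr13, which gave 10 of the 39179 genes counted. All 10 passed the filter on low counts in both experiments, although Tlr5 did so on a handful of reads in its highest conditions. At 24 h it passed through its M0 reads alone. In the second experiment it passed through M0 and M1-like libraries alone, where its level was highest. Its calls therefore add no support in either experiment, and its values are given as reads and their ratio. The cells were thioglycolate-elicited peritoneal macrophages of C57BL/6 mice, which the study's methods give as 8 to 20 weeks old, with no genetic change in any group. Thioglycolate is an irritant that draws monocytes into the peritoneal cavity, and the adherent cells were used without a sort, so a minority of other cells stays in the culture.

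In the first experiment, M0 macrophages without stimulus, M1-like macrophages given LPS (100 ng/ml) plus IFNγ (50 ng/ml) and M2-like macrophages given IL-4 (10 ng/ml) were collected after 24 h from 3 mice, with 2 technical replicates each. In the second experiment, 12 conditions had 3 replicates each. M0, M1-like and M2-like cells were either left untransfected or given only the transfection reagent (mock). M2-like cells were also transfected with a negative siRNA pool, with a pool against E2f1, Myc, Pparg or Stat6, or with all 4 together, which gives the cells called iM1 macrophages. RNA of transfected cells was taken 48 h after transfection, which followed 24 h of polarization. By the study's methods, M2-like cells of the reprogramming experiments were kept without IL-4 once they had been transfected. The Myc siRNA came from another supplier than the pools against the other targets, so the target and the make of the siRNA cannot be told apart for it. This siRNA is also part of the combined pool, so the limit extends to iM1 macrophages. The supplier of the negative pool is not given in the study's methods. The labels do not tie the replicates of the second experiment to separate mice, and p-values then measure the spread between these samples.

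Toll-like receptors are membrane proteins that recognize conserved parts of microbes and start inflammatory gene expression through adaptor proteins that bind their cytoplasmic TIR domain. Tlr2 pairs with Tlr1 or Tlr6 for bacterial lipoproteins, Tlr4 binds LPS together with MD-2, and Tlr5 binds flagellin, all mainly at the cell surface. Tlr3 for double-stranded RNA, Tlr7 and Tlr8 for single-stranded RNA and its breakdown products, Tlr9 for DNA with unmethylated CpG and Tlr13 for bacterial ribosomal RNA act inside endosomes. LPS was itself part of the M1-like stimulus, so the ligand of Tlr4 was added in those conditions only.

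In the GRCm38 annotation used here (GENCODE M21), the genes lie on 7 chromosomes. Tlr1 (ENSMUSG00000044827, chr5:64924679-64933563) and Tlr6 (ENSMUSG00000051498, chr5:64952031-64960097) are neighbours on the minus strand, and so are Tlr8 (ENSMUSG00000040522, chrX:167242696-167264329) and Tlr7 (ENSMUSG00000044583, chrX:167304929-167330558). Tlr13 (ENSMUSG00000033777, chrX:106143204-106160493) lies apart from them on the same chromosome. The others are Tlr2 (ENSMUSG00000027995, chr3:83836272-83841767), Tlr3 (ENSMUSG00000031639, chr8:45395665-45411080), Tlr4 (ENSMUSG00000039005, chr4:66827584-66930284), Tlr5 (ENSMUSG00000079164, chr1:182954788-182976044) and Tlr9 (ENSMUSG00000045322, chr9:106222598-106226883). Of all 50-base windows of the longest Tlr1 transcript, 15.3% also occur in Tlr6, and 12.6% of those of Tlr6 occur elsewhere, nearly all in Tlr1, so reads of this pair are in part uncertain where they are 50 bases long. Exons of Tlr3 overlap those of the antisense gene Gm45542, and no setting for strand is given for the counting, so reads of the 2 cannot be told apart. The remaining members shared no such window with another gene.

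Libraries held 19714994 to 29880494 counted reads in the first experiment and 13421854 to 19704195 in the second. The 7 macrophage markers (Adgre1, Csf1r, Cd68, Lyz2, Itgam, Mertk and Fcgr1) were all detected in every condition and summed to between 6210 and 18300 CPM (counts per 1000000 reads of a library, its size scaled by TMM factors within each experiment), against at most 276 CPM for the 6 mesothelial and fibroblast markers, 46.1 CPM for the 4 eosinophil markers, 34.9 CPM for the 5 B cell markers and 14.3 CPM for any of the T cell, natural killer cell, neutrophil, mast cell and dendritic cell lists. Each siRNA pool lowered its target, to 25.2% of the mean of the negative pool for E2f1, 38.1% for Myc, 22.0% for Pparg and 27.3% for Stat6, and iM1 macrophages held 60.2%, 39.7%, 28.4% and 53.7% of these. Pparg mRNA was also at 65.3% of the negative pool after the Myc pool, 80.0% after the E2f1 pool and 78.5% after the Stat6 pool. The replicates of untransfected M1-like cells of the second experiment differed for several members. Replicate 2 had 18.1 CPM of Tlr9 against 35.4 and 33.4, and 9.91 CPM of Tlr3 against 5.62 and 5.87 in replicates 1 and 3. Tlr2 was spread more evenly, at 26.9, 52.6 and 43.0 CPM in replicates 1, 2 and 3.

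Per base of exon, Tlr13 was the most abundant Toll-like receptor mRNA in 14 of the 15 conditions, and the family changed its make-up most in M1-like macrophages at 24 h. At 24 h, Tlr13 stood at 133 ± 1.56 RPKM (CPM per kilobase of exon, mean ± SD, n = 3) in M0 and 87.8 ± 11.5 RPKM in M2-like cells, followed in both by Tlr8 at 40.6 ± 0.977 and 60.0 ± 7.53 RPKM. In M1-like cells at 24 h the order was another one, with Tlr2 first at 48.5 ± 4.51 RPKM, then Tlr7 at 31 ± 2.02 and Tlr9 at 25.4 ± 2.91, without overlap between neighbours, while Tlr6, Tlr13 and Tlr1 followed at 15.1, 14.9 and 14.0 RPKM with overlapping values. The surface receptors made up 51.5% ± 0.284 of the summed level of the 10 genes in M1-like cells at 24 h, against 15.8% ± 0.421 without stimulus and 19.1% ± 0.614 in M2-like cells. The sum itself was 162 ± 11.7 RPKM in M1-like, 244 ± 1.52 RPKM in M0 and 207 ± 25.7 RPKM in M2-like cells. Tlr5 came last in every condition, at no more than 0.141 RPKM.

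**Figure D1:**
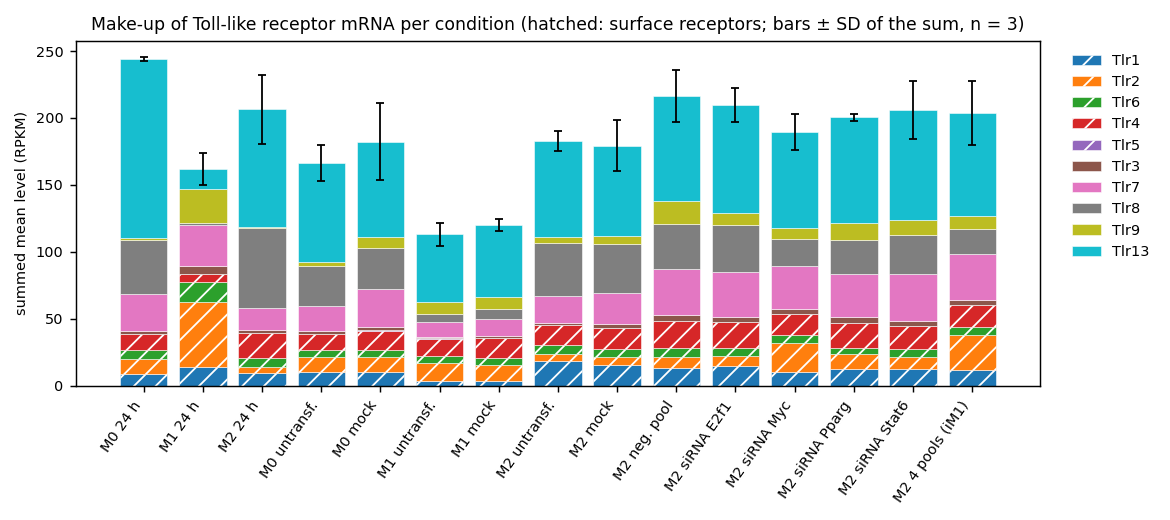
Summed mean level of the 10 genes in RPKM (vertical axis) for each of the 15 conditions, stacked by gene with surface receptors hatched; error bars are the SD of the sum over 3 mice or replicates. Tlr13 fills the largest block in every condition but M1-like at 24 h, where Tlr2 does.

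Levels of the experiments were scaled separately and are not tested against each other. In the second experiment Tlr13 led throughout, from 50.8 ± 6.10 RPKM in untransfected M1-like to 82.0 ± 11.2 RPKM in cells with the Stat6 pool. Below it the order was less firm. In untransfected M1-like cells Tlr2, Tlr4, Tlr7, Tlr9, Tlr8 and Tlr6 followed with means from 13.5 down to 5.16 RPKM, and each but the last overlapped the next one. In M2-like mock cells Tlr8 at 36.6 ± 4.29 and Tlr7 at 23.2 ± 2.85 RPKM were clear of their neighbours, whereas with the negative siRNA pool Tlr7 at 34.6 ± 3.26 and Tlr8 at 33.9 ± 5.73 RPKM overlapped. The surface share was 31.3% ± 4.11 in untransfected M1-like, 29.6% ± 1.77 in iM1 and 28.3% ± 1.84 in cells with the Myc pool, and 20.7% to 25.3% in single libraries of untransfected M0 and M2-like cells.

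**Figure D2:**
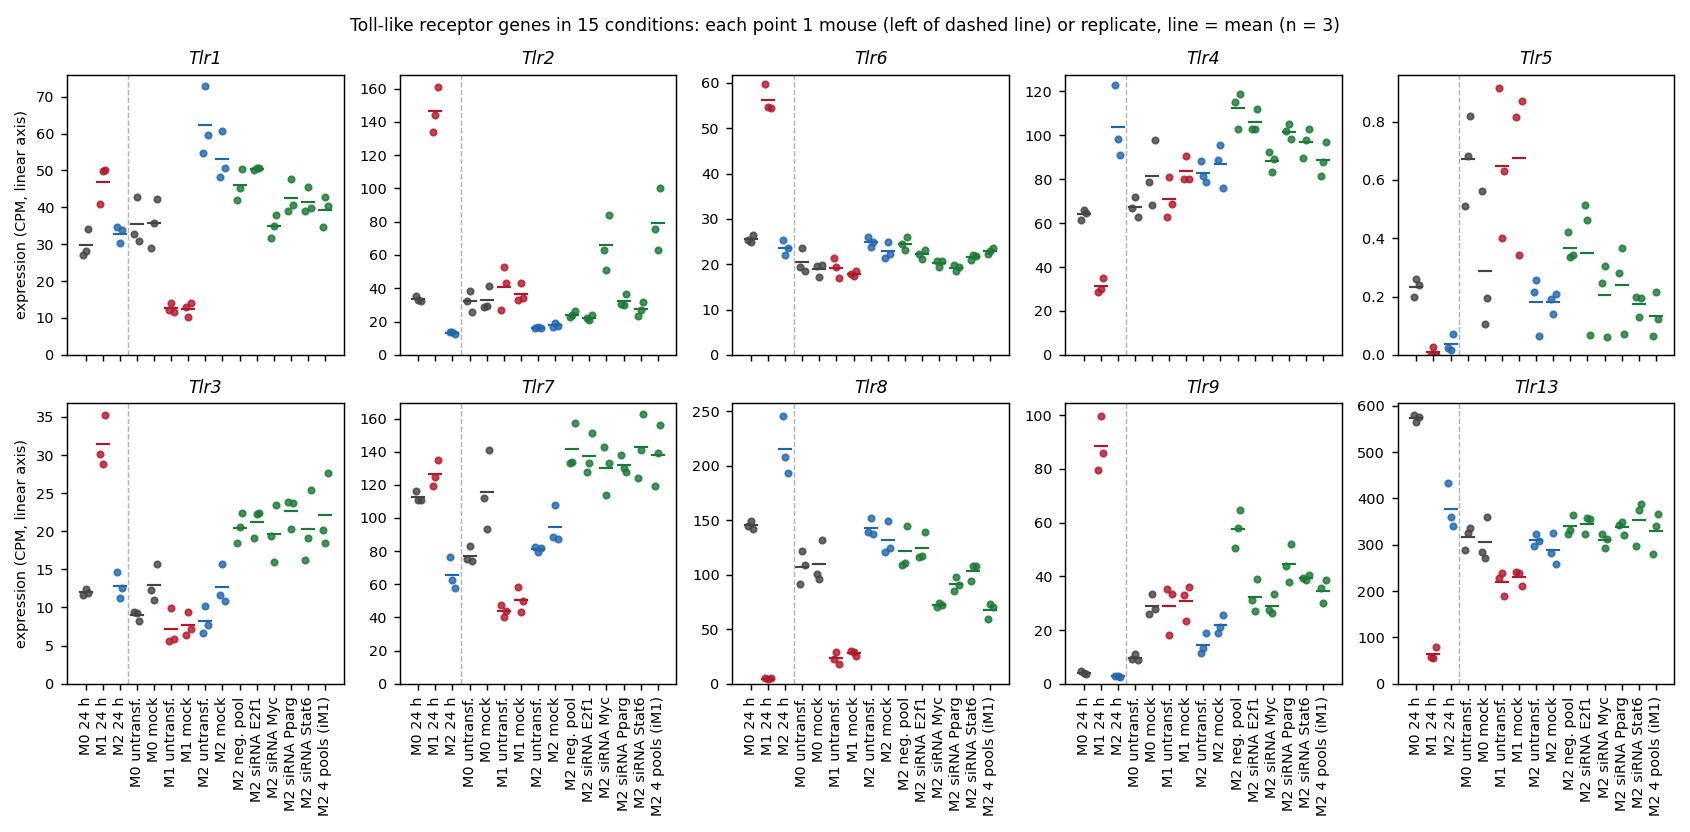
Level of each gene in CPM (vertical axes, linear and from 0, with a scale for each panel) in the 15 conditions; points are mice or replicates, lines are means, grey is M0, red M1-like, blue M2-like and green M2-like with siRNA. Tlr9 runs from 2.61 to 99.6 CPM, and Tlr5 stays under 1 CPM in all libraries.

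The first comparison asked how 24 h of LPS and IFNγ changed the family. Of the 10 genes, M1-like macrophages had 5 at a higher and 4 at a lower level than M0 (edgeR's quasi-likelihood test, adjusted p under 0.05), in a comparison in which 35.4% of all tested genes were higher and 37.5% lower. The shifts were large in both directions. Tlr9, Tlr2, Tlr3, Tlr6 and Tlr1 rose, Tlr8, Tlr13 and Tlr4 fell, Tlr5 is the sparse gene counted with the lower ones, and Tlr7 had a log2 fold change of 0.17 (SE 0.09, adjusted p = 0.123). The median log2 fold change was 0.41 over the 10 genes and -0.04 over all tested genes. As these are bulk samples, fewer cells that make an mRNA and less of it per cell cannot be told apart. Of the 7 macrophage markers 3 rose and 3 fell. The 4 eosinophil markers summed to 0.270 to 0.818 CPM in M1-like and 15.6 to 17.0 CPM in M0 cells, and the 6 mesothelial and fibroblast markers to 2.78 to 4.54 and 11.9 to 19.1 CPM. Both tested neutrophil markers and 2 of 4 tested dendritic cell markers were higher, and their part in the members' differences was not tested.

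Tlr9, the DNA sensor, had the largest increase. It stood at 4.72, 4.03 and 3.55 CPM in M0 cells of mice 1, 2 and 3 and at 79.8, 99.6 and 86.0 CPM in their M1-like cells. All M1-like values lie more than 10 times above every M0 value, and the log2 fold change was 4.43 (SE 0.12, adjusted p = 8.07e-12), a 21.6-fold increase. The promoters of Tlr9 and of the next genes are shown as they are the members whose level moved most in this comparison, apart from Tlr13 and the sparse Tlr5, from 250 bases before to 50 bases after the RefSeq start (GRCm38.p6). Capitals mark all matches of 7 motifs on either strand: IRF (AANNGAAA), STAT6 (TTCNNNNGAA), NF-kB by its consensus, AP-1 (TGANTCA), PU.1 (GAGGAA), E-box (CACGTG) and E2F (TTTCCCGC or TTTGGCGC). The Tlr9 window lies on the plus strand at chr9:106222348-106222647.
Tlr9: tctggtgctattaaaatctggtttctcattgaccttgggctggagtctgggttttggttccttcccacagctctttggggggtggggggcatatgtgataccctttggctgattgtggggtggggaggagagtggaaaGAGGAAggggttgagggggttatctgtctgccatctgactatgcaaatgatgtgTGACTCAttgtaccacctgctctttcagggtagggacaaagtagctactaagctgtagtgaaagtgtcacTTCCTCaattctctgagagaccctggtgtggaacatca
Its capitals are a PU.1 match that begins 112 bases before the start, an AP-1 match 58 bases before it, and a second PU.1 match, on the other strand, from base 13 after it. PU.1 letters occur in 28.3% and AP-1 letters in 7.81% of all 32851 promoter windows of this length.

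Tlr2, the lipoprotein receptor, was measured at 35.6, 33.1 and 32.1 CPM in M0 and at 134, 144 and 161 CPM in M1-like cells. The groups are far apart, with a log2 fold change of 2.12 (SE 0.07, adjusted p = 1.14e-10). Its partners Tlr6 and Tlr1 rose less, by a log2 fold change of 1.14 (SE 0.07) from 25.6 ± 0.874 to 56.2 ± 3.01 CPM for Tlr6 and of 0.65 (SE 0.10) from 29.9 ± 3.74 to 47.0 ± 5.15 CPM for Tlr1. Tlr3, the receptor for double-stranded RNA, went from 11.6, 12.4 and 11.9 CPM to 30.1, 28.8 and 35.3 CPM, a log2 fold change of 1.39 (SE 0.10, adjusted p = 1.14e-07). The Tlr2 window (minus strand, chr3:83841559-83841858) and the Tlr3 window (minus strand, chr8:45410331-45410630) are the ones that hold NF-kB letters, which 8.46% of all windows do.
Tlr2: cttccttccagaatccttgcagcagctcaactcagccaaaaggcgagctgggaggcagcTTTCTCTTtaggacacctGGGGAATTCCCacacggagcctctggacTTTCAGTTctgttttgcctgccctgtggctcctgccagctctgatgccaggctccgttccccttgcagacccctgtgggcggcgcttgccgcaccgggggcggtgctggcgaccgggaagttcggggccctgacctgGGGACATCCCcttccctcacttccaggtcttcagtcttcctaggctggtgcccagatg
Tlr3: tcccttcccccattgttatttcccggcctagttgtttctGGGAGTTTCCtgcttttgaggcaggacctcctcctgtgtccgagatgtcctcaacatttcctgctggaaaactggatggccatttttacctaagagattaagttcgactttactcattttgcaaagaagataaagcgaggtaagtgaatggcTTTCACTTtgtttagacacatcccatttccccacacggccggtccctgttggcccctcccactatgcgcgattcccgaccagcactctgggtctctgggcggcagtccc
In Tlr2 the NF-kB matches begin 173 and 172 bases before the start, where they overlap, and 8 bases before it, and both IRF matches, at 191 and 145 bases before the start, read on the other strand. In Tlr3 the NF-kB match begins 211 and the IRF match 59 bases before the start. IRF letters were in 23.9% of all windows and in those of 4 of the 8 members with a RefSeq window, namely Tlr1, Tlr2, Tlr3 and Tlr6. Tlr1 and Tlr6 have 2 windows each, and Tlr4 and Tlr7 have none in the table used. E2F letters were in none of the members' windows, against 1.56% of all.

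Tlr8, an endosomal RNA receptor, showed the opposite pattern. M0 cells had 145, 149 and 142 CPM of Tlr8 and M1-like cells 4.81, 4.21 and 4.87 CPM. Its log2 fold change of -4.97 (SE 0.10, adjusted p = 1.64e-12) is a 31.4-fold decrease, the largest of the family apart from the sparse Tlr5. The Tlr8 window (minus strand, chrX:167264280-167264579) is the only one of the members with STAT6 letters, which 6.95% of all windows hold.
Tlr8: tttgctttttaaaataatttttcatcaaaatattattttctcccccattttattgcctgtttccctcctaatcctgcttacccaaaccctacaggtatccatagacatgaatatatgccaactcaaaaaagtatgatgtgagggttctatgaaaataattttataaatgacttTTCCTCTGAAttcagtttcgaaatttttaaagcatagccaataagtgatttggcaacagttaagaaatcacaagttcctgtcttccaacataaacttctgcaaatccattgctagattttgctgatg
This match begins 77 bases before the start and overlaps a PU.1 match on the other strand. A match of letters is a description of the window and shows no binding.

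Tlr13, the receptor for bacterial ribosomal RNA, fell from 579, 566 and 575 CPM in M0 to 57.8, 55.7 and 79.5 CPM in M1-like macrophages. That 8.91-fold decrease (log2 fold change -3.16, SE 0.14, adjusted p = 7.77e-10) took it from the first to a middle place in the family. Tlr4, the LPS receptor, went from 61.6, 65.9 and 64.5 to 28.6, 30.2 and 35 CPM, a log2 fold change of -1.03 (SE 0.11, adjusted p = 3.20e-06). Tlr5, the flagellin receptor, was covered by 10, 14 and 13 reads in M0 and by 0, 1 and 0 reads in M1-like cells. The ratio of its counts per counted read was 0.0255, with an exact 95% interval from 0.000629 to 0.151 that covers counting error only.

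IL-4 moved the family less. At 24 h, M2-like macrophages had 2 members higher and 5 lower than M0, with 13.5% of all tested genes higher and 14.4% lower. Tlr4 rose from a mean of 64.0 to 104 CPM (log2 fold change 0.70, SE 0.11), with single values of 123, 98.2 and 90.9 CPM, and Tlr8 from 146 to 215 CPM (0.56, SE 0.08). Tlr2 fell from 33.6 to 13.3 CPM (log2 fold change -1.34, SE 0.08, adjusted p = 3.98e-07), and Tlr7 from 113 to 65.7 CPM (-0.78, SE 0.09). Tlr13 fell by 0.60 (SE 0.13) and Tlr9 by 0.55 (SE 0.13) on the log2 scale. Tlr5, one of the lower ones through the filter it passed in M0 alone, was covered by 6 reads against 37, a ratio of 0.166 with an exact 95% interval from 0.0574 to 0.398. Tlr1, Tlr3 and Tlr6 did not pass the test, at log2 fold changes of 0.14, 0.10 and -0.11.

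Set against each other at 24 h, M1-like macrophages exceeded M2-like ones for 6 members and were lower for 3, while 34.6% of all tested genes were higher and 38.1% lower. Both comparisons above share their M0 samples. Tlr9 was 31.7-fold higher (log2 fold change 4.98, SE 0.12), Tlr2 11-fold (3.46, SE 0.08) and Tlr7 1.93-fold (0.95, SE 0.09). Tlr8 was 46.4-fold lower (log2 fold change -5.53, SE 0.11), Tlr13 5.87-fold and Tlr4 3.33-fold. For Tlr5, with 1 read against 6, the interval of the ratio ran from 0.00333 to 1.26.

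The second experiment held the polarized states again, with and without transfection. How long its untransfected cells were cultured is not clear from the sources used here. Untransfected M1-like cells had 1 member higher and 4 lower than M0, against 29.0% and 28.7% of all tested genes. Tlr9 was again higher, with 35.4, 18.1 and 33.4 CPM against 9.30, 11 and 8.93 CPM (log2 fold change 1.57, SE 0.21, adjusted p = 1.67e-07). The replicate with 18.1 CPM was still above all M0 values. Tlr8 was again lower, with 22.2, 29.2 and 18.2 CPM against 91.3, 122 and 109 CPM (-2.22, SE 0.14), and Tlr13 fell by 0.54 (SE 0.11). Tlr1 was now lower as well, at 12.2, 14.1 and 11.7 against 32.9, 42.7 and 30.8 CPM (-1.49, SE 0.14, adjusted p = 1.77e-10), and Tlr7 fell by 0.81 (SE 0.13) from 77.3 to 44.0 CPM.

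Tlr2 at 40.8 ± 13 against 32.2 ± 6.33 CPM did not pass the test in untransfected cells (log2 fold change 0.34, SE 0.19, adjusted p = 0.132), and its groups overlapped. It passed with no filter (adjusted p = 0.00732). Without replicate 1 of the M1-like cells it passed at 0.57 (adjusted p = 0.0110), and without replicate 2 of these Tlr3 passed at -0.64 (adjusted p = 0.0227). Cell type markers moved with this comparison. All 5 B cell markers were lower in the M1-like cells, which summed to 0.732 to 1.47 CPM against 9.34 to 32.4 CPM in M0. The 4 eosinophil markers summed to 0.610 to 1.70 against 16.1 to 24.4 CPM, with Prg2 at 0 in both, and the 5 mast cell markers to 0.189 to 1.07 against 2.32 to 4.34 CPM, with 3 of 4 tested lower. All 5 tested markers of mesothelial cells and fibroblasts were lower as well (17.7 to 58.3 against 79.0 to 159 CPM for 6 markers, of which 1 was at 0 in the M1-like cells), and 5 of 7 macrophage markers too (6640 to 7790 against 16400 to 16800 CPM). With sums this low, the B cell and mast cell markers passed the filter mainly through groups other than M1-like. Their calls were thus largely fixed in direction and add no support to the sums. The part of all these markers in the members' differences was not tested.

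Untransfected M2-like macrophages had 4 members higher and 2 lower than M0, with 10.7% and 9.19% of all tested genes. Tlr1 stood at 54.7, 72.9 and 59.6 CPM, above all M0 values (log2 fold change 0.81, SE 0.13). Tlr8, Tlr4 and Tlr6 rose by 0.40, 0.30 and 0.28 with adjusted p of 0.0277, 0.0386 and 0.0213, and their groups did not overlap. At least 1 of these 3 calls was lost when replicate 1 or 3 of M0 or replicate 1 or 2 of M2-like cells was left out, and without replicate 3 of M0 only 2 of the 10 members were called, Tlr1 and Tlr2. With no filter on low counts, or only the compared conditions, Tlr6 did not pass (adjusted p = 0.0955 and 0.0789). Tlr9, which fell at 24 h, had a log2 fold change of 0.56 here (SE 0.22, adjusted p = 0.0744), from 9.76 to 14.4 CPM with groups apart, and passed with DESeq2, no filter or only the compared conditions (adjusted p = 0.0316, 0.000360 and 0.0431). Tlr2 fell by 0.97 (SE 0.21) from 32.2 to 16.4 CPM. The other lower one was the sparse Tlr5, which passed the filter through M0 and M1-like libraries alone. It had 8 reads against 30, a ratio of 0.248 with an exact 95% interval from 0.0981 to 0.553. Its call was lost with no filter (adjusted p = 0.0559) and in 4 of the 6 fits that left out 1 library.

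M1-like against M2-like cells without transfection gave 3 members higher and 5 lower, against 31.3% and 30.2% of all tested genes. Tlr2 and Tlr9 were higher, at log2 fold changes of 1.31 (SE 0.20) for Tlr2 and 1.01 (SE 0.20) for Tlr9. The other higher member was the sparse Tlr5, which passed the filter through M0 and M1-like libraries alone. It had 31 reads against 8, a ratio of 4.19 with an exact 95% interval from 1.89 to 10.6. Its call was lost in 2 of the 6 fits that left out 1 library. The Tlr9 groups overlapped in 1 M1-like replicate. Tlr8, Tlr1, Tlr7, Tlr13 and Tlr6 were lower, by 2.62 down to 0.37 on the log2 scale. Tlr4 had a log2 fold change of -0.22 (adjusted p = 0.0605). It passed with RLE in place of TMM factors, no filter or DESeq2 (adjusted p = 0.0379, 0.0364 and 0.0358). In mock cells, 3 members were higher and 6 lower, with 30.9% and 29.8% of all tested genes, and Tlr3 joined the lower ones (log2 fold change -0.73, SE 0.21). The higher ones were again Tlr2, Tlr9 and the sparse Tlr5. The Tlr9 difference was smaller there at 0.49 (SE 0.19, adjusted p = 0.0284), with overlapping groups, and its call was lost in 4 of the 6 fits that left out 1 library. The call of Tlr13, at -0.33 (adjusted p = 0.0104), was lost in 2 of these 6 fits. Whether mock treatment altered the M1-like against M2-like difference was tested as an interaction, which called 0 of the 10 members by edgeR and by DESeq2 and 1.13% of all tested genes. At an unadjusted p under 0.05 there was 1 member, Tlr8, with an interaction of 0.41 (SE 0.20, adjusted p = 0.652).

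**Figure D3:**
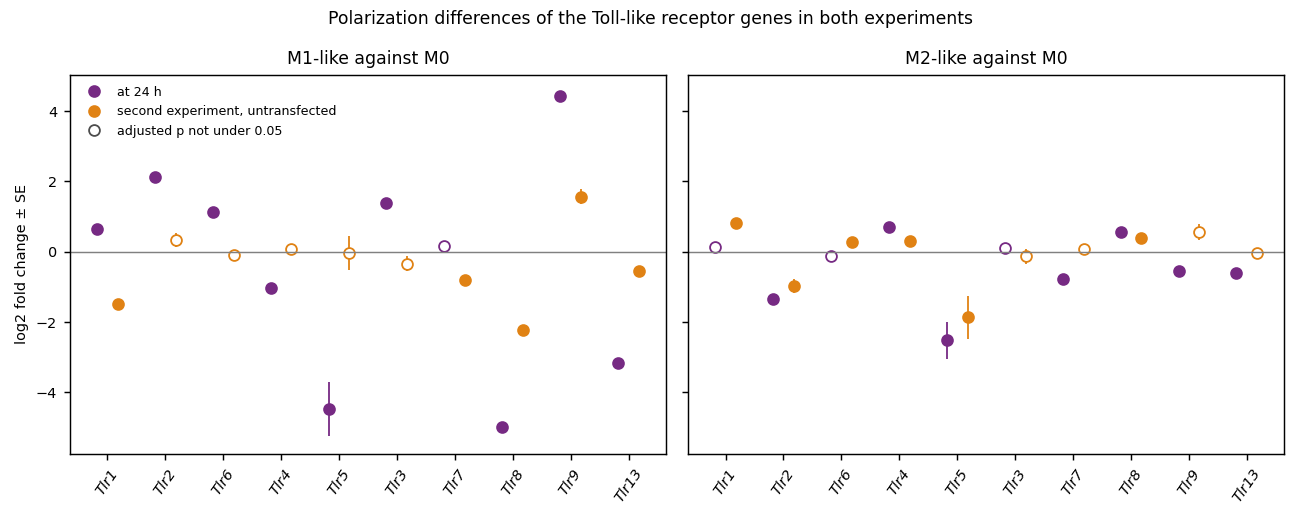
Log2 fold change ± SE (vertical axis) of each gene in M1-like against M0 (left) and M2-like against M0 (right), at 24 h in purple and in untransfected cells of the second experiment in orange; open points did not reach an adjusted p under 0.05. Tlr1 lies at 0.65 at 24 h and at -1.49 in the second experiment, both on the left, where Tlr8 and Tlr9 keep their sides with smaller values; on the right Tlr9 lies at -0.55 and 0.56.

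The difference between M1-like and M0 cells itself differed between the experiments for all 10 members, in a joint model of 45 samples in which 24% of all tested genes were called with a higher and 25.0% with a lower value at 24 h. For 6 members the log2 fold change was higher at 24 h and for 4 it was lower. The 4 include the sparse Tlr5, whose call adds no support. Tlr9 differed by 2.86 (SE 0.28), Tlr1 by 2.13 (SE 0.19), Tlr2 by 1.77 (SE 0.25) and Tlr3 by 1.72 (SE 0.27), and Tlr8 by -2.76 (SE 0.20), Tlr13 by -2.63 (SE 0.17) and Tlr4 by -1.12 (SE 0.15). For M2-like against M0 cells, 1 member differed upward and 5 downward, against 8.67% and 8.49% of all tested genes, with Tlr9 at -1.09 (SE 0.31) and Tlr7 at -0.83 (SE 0.17). The upward one, Tlr4 at 0.42 (SE 0.15, adjusted p = 0.0460), was lost in 9 of the 12 fits that left out 1 library. Read length, reads from 1 or both ends and the sequencing centre changed together between the experiments, and the time in culture may have, and these cannot be told apart.

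The transfection reagent alone was compared with no transfection. In M0 macrophages 2 members rose with mock, against 11.7% of all tested genes, and both are endosomal. Tlr9 went from 9.30, 11 and 8.93 to 25.8, 33.6 and 27.9 CPM (log2 fold change 1.58, SE 0.21, adjusted p = 1.25e-06), and Tlr7 from 75.0, 83.1 and 73.8 to 112, 93.3 and 141 CPM (0.57, SE 0.13, adjusted p = 0.00106). In neither gene did the groups overlap. With DESeq2, or with no filter on low counts, Tlr3 and Tlr4 passed as well, which makes 4 members. In M1-like cells mock changed 0 members by edgeR and by DESeq2, with 0% of all tested genes called, and 1, Tlr4, had an unadjusted p under 0.05. In M2-like cells it changed 0 members by either tool and 1.77% of all tested genes. Tlr3 and Tlr9 had an unadjusted p under 0.05 there, at log2 fold changes of 0.63 (SE 0.21, adjusted p = 0.197) and 0.59 (SE 0.21, adjusted p = 0.226), and both passed when no filter on low counts was used.

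Adding a negative siRNA pool, which has no intended target, to the reagent raised 4 members in M2-like macrophages, against 6.67% of all tested genes. Among them are 3 of the endosomal nucleic acid receptors. Tlr9 stood at 18.8, 21.2 and 25.7 CPM in mock and 50.4, 58.0 and 64.7 CPM with the negative pool (log2 fold change 1.40, SE 0.19, adjusted p = 4.24e-06). Tlr7 went from 88.7, 108 and 87.1 to 133, 134 and 157 CPM (0.58, SE 0.12, adjusted p = 0.00161), and Tlr3 from 11.6, 15.7 and 10.9 to 18.5, 20.5 and 22.4 CPM (0.69, SE 0.20, adjusted p = 0.0177). Tlr4 rose by 0.38 (SE 0.10, adjusted p = 0.0117) from 86.8 to 113 CPM. In each of the 4 genes the groups were apart. The calls of Tlr3 and Tlr4 were lost without replicate 3 of the mock cells or of the negative pool, and that of Tlr3 also without replicate 1 of the mock cells, which left 2 or 3 members. Tlr8 and Tlr13, the other endosomal receptors, had log2 fold changes of -0.11 (SE 0.13) and 0.23 (SE 0.11) and did not pass the test. Nor did the surface receptor Tlr2, at a log2 fold change of 0.45 (adjusted p = 0.172). Its groups were apart, at 22.7 to 26.1 CPM with the negative pool and 16.7 to 18.9 CPM in mock. It passed with no filter or only the compared conditions (adjusted p = 0.00321 and 0.0117). Cell type markers moved along. The 4 eosinophil markers summed to 33.5 to 38.8 CPM with the negative pool and 18.8 to 20.1 CPM in mock, with Epx and Prg2 at 0 in both, and 1 of them was tested and rose. The 5 T cell markers summed to 2.29 to 4.15 against 1.34 to 1.68 CPM and the 5 mast cell markers to 5.46 to 8.13 against 3.01 to 5.36 CPM, with 0 genes of either list passing the test by edgeR. The 7 macrophage markers summed to 12400 to 13500 against 14700 to 16000 CPM, of which 1 rose and 1 fell. Of the 5 B cell markers and the 5 tested mesothelial and fibroblast markers, 0 passed the test by edgeR. The part of these markers was not tested.

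The knockdowns were all compared with this negative pool, so these comparisons share its libraries. After the combined pool, iM1 macrophages had 1 member higher and 3 lower, against 12.5% and 13.9% of all tested genes. Tlr2 rose from 22.7, 23.7 and 26.1 to 75.4, 62.9 and 100 CPM, with no overlap (log2 fold change 1.72, SE 0.19, adjusted p = 5.92e-08). Tlr8 fell from 109, 111 and 145 to 59.0, 73.2 and 70.6 CPM (-0.85, SE 0.13, adjusted p = 1.35e-05). Tlr9 fell by 0.73 (SE 0.18) from 57.7 to 34.7 CPM and Tlr4 by 0.34 (SE 0.10) from 113 to 88.7 CPM, a call that was lost without replicate 3 of the negative pool or replicate 1 of iM1.

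The Myc pool gave 1 member higher and 5 lower, against 13.9% and 15.6% of all tested genes. Tlr2 was the one that rose, to 63.0, 50.8 and 84.3 CPM (log2 fold change 1.45, SE 0.19, adjusted p = 9.46e-07), values that overlap those of iM1 cells. Tlr8 fell to 70.3, 73.7 and 72.4 CPM (-0.75, SE 0.13), Tlr9 to 27.6, 26.3 and 33.4 CPM (-0.99, SE 0.19), and Tlr1, Tlr4 and Tlr6 by 0.40, 0.35 and 0.28 on the log2 scale. Without replicate 3 of the negative pool, Tlr1 and Tlr6 no longer passed (adjusted p = 0.106 and 0.0742), nor did Tlr1 without replicate 1 or Tlr6 without replicate 2 of the Myc pool. The difference between iM1 and the Myc pool was not tested. Both conditions hold the Myc siRNA, for which target and make cannot be told apart.

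The other pools gave fewer calls in the family. The E2f1 pool lowered 1 member, Tlr9, against 0.649% of all tested genes, from 57.7 to 32.4 CPM (log2 fold change -0.83, SE 0.19, adjusted p = 0.0185). This call was lost without replicate 2 or 3 of the negative pool or replicate 1 or 2 of the E2f1 pool, which left 0 members. The Pparg pool lowered 1 member, Tlr6 (-0.35, SE 0.09, adjusted p = 0.0109), against 3.03% of all tested genes, and lost it without replicate 3 of the negative pool or replicate 2 of the Pparg pool. Tlr8 after the Pparg pool was at 85.0, 97.5 and 90.6 CPM, below all values of the negative pool, with a log2 fold change of -0.42 (SE 0.13, adjusted p = 0.0553), and passed with DESeq2, no filter or only the compared conditions (adjusted p = 0.0293, 0.000563 and 0.0231). Tlr2 was at 30.7, 30.0 and 36.8 CPM, above all values of the negative pool, with a log2 fold change of 0.42 (SE 0.20, adjusted p = 0.226), and passed with no filter or only the compared conditions (adjusted p = 0.00544 and 0.0158). The Stat6 pool changed 0 members by edgeR and by DESeq2, with 1.51% of all tested genes called, and Tlr4, Tlr6 and Tlr9 had an unadjusted p under 0.05. Tlr9 (log2 fold change -0.55) passed with no filter or only the compared conditions (adjusted p = 0.000169 and 0.00948).

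**Figure D4:**
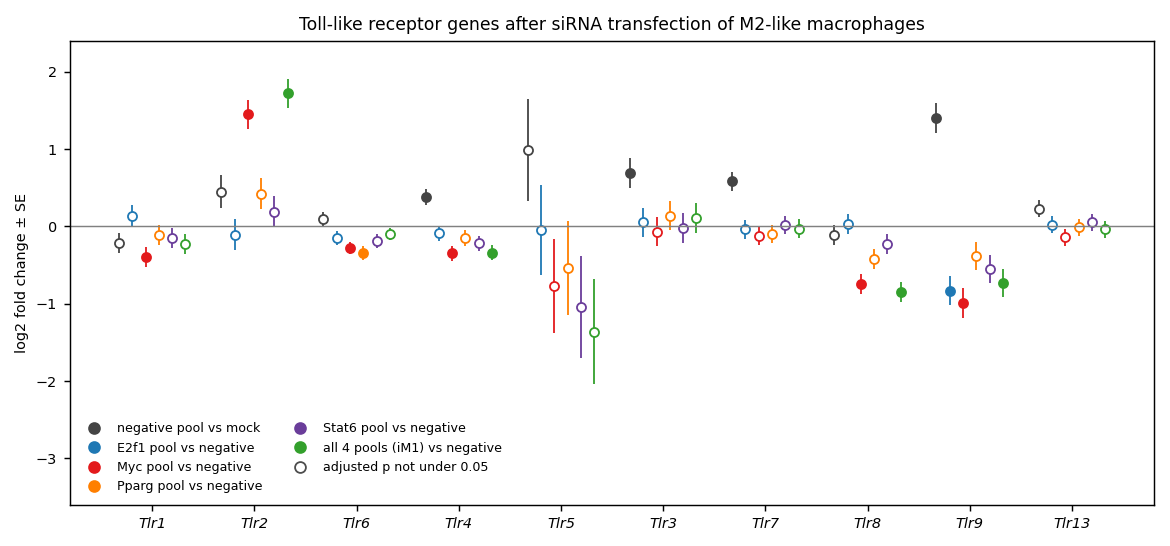
Log2 fold change ± SE (vertical axis) of each gene for the negative pool against mock (grey) and for each pool against the negative pool (colours); open points did not reach an adjusted p under 0.05. Tlr2 lies at 1.45 with the Myc pool and 1.72 in iM1, and the Tlr9 value of 1.40 for the negative pool is of the opposite sign to those of all knockdowns. All these comparisons share the negative-pool libraries, so their signs are not independent.

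For Tlr9 the sign depended on the reference. Against M2-like mock cells in place of the negative pool, the log2 fold change of Tlr9 was 0.57 for the E2f1 pool and 0.41 for the Myc pool, neither past the test, and 1.03 for the Pparg and 0.85 for the Stat6 pool, both past it. Tlr7 was higher than in mock by 0.46 to 0.60 after every single pool, and Tlr3 by 0.62 to 0.83, all past the test. Tlr4 was at 0.03 for the Myc pool. iM1 macrophages against M2-like mock gave 4 members higher and 2 lower, against 19.0% and 18.1% of all tested genes. Tlr2 (log2 fold change 2.17, SE 0.20), Tlr3 (0.80, SE 0.19), Tlr9 (0.67, SE 0.19) and Tlr7 (0.55, SE 0.12) were higher, and Tlr8 (-0.95, SE 0.13) and Tlr1 (-0.44, SE 0.13) lower, the last not without replicate 2 of the mock cells or replicate 1 of iM1. In iM1 macrophages the direction of Tlr2 was thus shared by both references and that of Tlr9 was not.

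The last comparison set iM1 macrophages beside M1-like mock cells of the same experiment. Here 7 members were higher in iM1 and 1 lower, against 27.2% and 25.6% of all tested genes. Tlr1 (39.3 against 12.4 CPM, log2 fold change 1.66, SE 0.14), Tlr3 (22.1 against 7.64 CPM, 1.52, SE 0.20), Tlr7 (138 against 50.5 CPM, 1.45, SE 0.13) and Tlr8 (67.6 against 28.2 CPM, 1.26, SE 0.14) exceeded the M1-like cells. Tlr2 did so too, at 79.6 ± 19.1 against 36.7 ± 5.71 CPM (1.11, SE 0.19, adjusted p = 7.68e-06), and Tlr13 and Tlr6 by 0.52 and 0.35. The lower one was the sparse Tlr5, at 7 reads in iM1 against 37, which passed the filter through M0 and M1-like libraries alone. Tlr9 and Tlr4 did not pass the test, at 0.17 (SE 0.19) and 0.08 (SE 0.10). All 5 B cell markers were higher in iM1 (13.7 to 25.7 against 0.979 to 2.35 CPM summed), as were the 5 tested mesothelial and fibroblast markers (146 to 229 against 10.3 to 23.6 CPM), all 4 tested mast cell markers, the 1 tested eosinophil marker and 5 of 7 macrophage markers. The 4 eosinophil markers summed to 23.0 to 35.2 CPM in iM1 and 0.737 to 1.28 CPM in M1-like mock cells. The B cell, mast cell and eosinophil markers passed the filter mainly through groups other than M1-like, so their calls add no support to the sums. The part of all these markers was not tested.

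Across the 12 conditions of the second experiment each member had its own order of levels. Tlr8 was highest in untransfected M2-like cells at 142 CPM and lowest in untransfected M1-like cells at 23.2 CPM. The conditions with the Myc pool (70.3 to 73.7 CPM) and iM1 (59.0 to 73.2 CPM) overlapped each other and lay apart from the Pparg pool above and M1-like mock below. Tlr1 was at 12.4 and 12.7 CPM in the M1-like conditions, clear of all others. Tlr2 ran from 16.4 CPM in untransfected M2-like to 79.6 CPM in iM1, with iM1 and the Myc pool overlapping. Tlr9 ran from 9.76 CPM in untransfected M0 to 57.7 CPM with the negative pool. Tlr6 moved least of the members above 1 CPM, between means of 17.9 and 24.8 CPM.

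Among the 10129 genes with a mean log2 CPM of at least 2, those whose 12 condition means correlated best with Tlr8 were Dnase2a, a lysosomal DNase, and Daglb (both r = 0.99), and with Tlr1 they were Tnfaip8 and Plekha1 (both 0.99). Tlr3 was most like Trim14 and Epsti1 (both 0.99), which are known as interferon-induced genes, and Tlr7 most like Siglec1 (0.99) and Snx2 (0.98). For Tlr13 they were Slc40a1, the iron exporter ferroportin, and Cct5 (both 0.98), for Tlr2 Poldip3 and Mmp14 (both 0.97), for Tlr4 Tmem229b (0.96) and Gm8116 (0.93), for Tlr9 Ascc3 and Nectin2 (both 0.95) and for Tlr6 Atp5c1 and Echdc3 (both 0.91). The 12 points share 1 experiment and come mostly from M2-like cells, and Tlr5 was too low to be compared. As the 2 best of 10129 genes were picked for each member, high r values follow in part from the pick. Shared regulation was not tested.

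The partners of the receptors were described from lists of genes by role. At 24 h in M1-like against M0 cells, all 5 tested TIR adaptors rose, with a median log2 fold change of 0.97, where 35.4% of all tested genes were higher and 37.5% lower. Myd88, the adaptor of nearly all Toll-like receptors, rose by 2.38 (SE 0.06) from 37.9 to 197 CPM, Ticam2 by 1.32, Ticam1, the TRIF adaptor of Tlr3 and Tlr4, by 0.97, Pik3ap1 by 0.79 and Tirap by 0.63. Of 14 proximal kinases and ubiquitin ligases 11 rose and 3 fell, with Tbk1 at 1.81, Peli1 at 1.77, Traf3 at 1.51, Traf6 at 1.41 and Irak2 at 1.11. Of 6 inhibitors 4 rose and 2 fell, with the deubiquitinase A20 (Tnfaip3) at 2.84, the inactive kinase Irak3 at 2.39 and Tnip1 at 2.05. The kinases, ligases and inhibitors named here are all among those that rose, and the 3 and 2 that fell are not named.

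Of 8 chaperones and trafficking factors 7 rose and 1 fell in that comparison, against the same 35.4% and 37.5% of all tested genes, including Unc93b1, which carries the endosomal receptors out of the endoplasmic reticulum, at 0.27 (SE 0.09) and the transporters Slc15a3 at 1.51 and Slc15a4 at -0.94. Of 6 co-receptors 2 rose and 2 fell. Cd14, which hands LPS to Tlr4, rose by 1.21 (SE 0.21), Cd180 by 0.51, the scavenger receptor Cd36 fell by 4.85 (SE 0.13) from 3150 to 109 CPM and Ly86 by 1.58. Of 10 endolysosomal proteases and nucleases 3 rose and 4 fell, with Lgmn at -2.37, Ctsl at -2.02, Dnase2a at -1.74 and the near-identical copies Rnaset2a and Rnaset2b, whose reads may be split, at 1.76 and 1.82.

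In untransfected M1-like against M0 cells of the second experiment, 2 of the 5 tested adaptors were higher and 1 lower, against 29% and 28.7% of all tested genes, and Myd88 had a log2 fold change of 0.20 (SE 0.13) that did not pass the test, whereas Ticam2 was higher by 1.44. With the negative pool against mock, where 6.67% of all tested genes were higher and 5.03% lower, 1 of the 5 tested adaptors was higher, Ticam1 at 0.38 (SE 0.09), and of the 10 endolysosomal genes 2 were, among them Pld4, an exonuclease that degrades single-stranded nucleic acids, at 1.30 (SE 0.18) from 79.6 to 197 CPM. In iM1 against the negative pool, with 12.5% of all tested genes higher and 13.9% lower, 0 of the 5 tested adaptors passed by edgeR and 0 had an unadjusted p under 0.05, 2 of 8 chaperones fell, Unc93b1 by 0.65 (SE 0.08) from 676 to 430 CPM and Hsp90b1 by 0.30, and of the endolysosomal genes 6 fell and 1 rose, with Ctsl at -0.90, Ctss at -0.62 and Dnase2a at -0.56. The Myc pool gave Unc93b1 at -0.69 and Ctsl at -0.94. The median log2 fold change over all tested genes was between -0.06 and 0.03 in every comparison.

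Of the remaining mouse Toll-like receptor genes, Tlr12, a receptor for profilin, had 8, 2 and 2 reads in M0 and 63, 55 and 82 reads in M1-like cells at 24 h, and 1, 1 and 0 against 84, 106 and 101 reads in the second experiment. It passed the filter through the M1-like groups alone, so no fold change is given. Tlr11 was at 0.262 CPM in M0 and 0.0793 CPM in M1-like cells at 24 h and did not pass the filter in the second experiment.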

How the data were processed

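The authors trimmed reads with Trimmomatic, aligned them to mm10 (GRCm38) with TopHat and counted them per gene with featureCounts, by the methods of the study and the submitters' processing notes. Versions, the strand setting and the treatment of reads with several matches are not given in the sources used here. The deposited values are whole-number counts per gene, 1 table for each of 54 libraries.

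Counts of both technical replicates were added up, which left 9 samples in the first and 36 in the second experiment, with groups taken from the labels. Library totals were 19714994 to 29880494 and 13421854 to 19704195 counted reads. CPM, with library sizes scaled by TMM within each experiment, and RPKM were computed from the counts, RPKM with the union of exons of GENCODE M21, and intervals cover counting error only.

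Differences were tested with edgeR 4.0.16 (R 4.3.3, quasi-likelihood, TMM factors, two-sided), with 1 model per experiment and a joint model for differences between them. Genes passed filterByExpr with a minimum count of 10 and a total of 15, which left 16110, 14172 and 15835 genes. P-values were adjusted by Benjamini-Hochberg over all of these, and genes under 0.05 were called. SE is the absolute log2 fold change divided by the square root of F. In simulated data with 100 genes changed at each fold, 98 of 2-fold and 100 of 4-fold were recovered for M1-like against M2-like cells at 24 h (15886 genes), and 89 and 100 for iM1 against the negative pool (13892 genes).

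In the first experiment equal numbers mark the same mouse by the labels, and the deviations of same-mouse samples from their group means had a median correlation of 0.25 (9 pairs, lowest -0.06), against -0.14 for other pairs. The block for the mouse changed no call there. Alternatives were DESeq2 1.42.0, RLE factors, no filter, the replicate block, unsummed technical replicates, only the compared conditions, M2-like mock as the reference, and leaving out each replicate. The members and the lists of partner and marker genes were chosen with earlier results of these data known. Partner genes were drawn from a choice made by rule. It held up to 4 genes per list, called without overlap, with the largest change in M1-like against M2-like cells at 24 h. Up to 2 more came from the comparison described. Not all genes of this choice are named, and Il1rl1 of the inhibitors and Ap3b1 of the trafficking factors are among those left out. Promoter sequences are from RefSeq.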

Additional observations from a re-analysis of the deposited data

Results flagged for a closer look

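The difference between M1-like and M0 macrophages was unequal in the first and the second experiment for all 10 Toll-like receptor genes, by the interaction in edgeR's joint model. The value at 24 h minus the value in untransfected cells of the second experiment was 2.86 for Tlr9, 2.13 for Tlr1, 1.77 for Tlr2, 1.72 for Tlr3, 1.22 for Tlr6 and 0.97 for Tlr7, and it was -4.14 for the sparse Tlr5, -2.76 for Tlr8, -2.63 for Tlr13 and -1.12 for Tlr4. Tlr1 changed sign between the experiments with a call in each.

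For M2-like against M0 cells 6 genes differed, with 0.42 for Tlr4, -0.37 for Tlr6, -0.55 for Tlr13, -0.65 for Tlr1, -0.83 for Tlr7 and -1.09 for Tlr9. Read length and sequencing centre changed with the experiment, the time in culture may have, and these cannot be told apart. As all groups had 3 samples, no single sample was tested for standing apart.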

How the results depend on the processing

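The number of Toll-like receptor genes called stayed within 1.5 times the reported one for most comparisons and alternatives. For mock against untransfected M0 cells (2 reported) it was 4 with no filter on low counts, with DESeq2 and with the replicate block, and for mock against untransfected M2-like cells (0 reported) it was 2 with no filter. For the Pparg pool (1 reported) it was 6 with M2-like mock as the reference, 4 with no filter, 3 with only the compared conditions and 2 with DESeq2 or the replicate block. For the Stat6 pool (0 reported) it was 4 with mock as the reference and 1 with no filter, the replicate block or only the compared conditions, and for the E2f1 pool (1 reported) it was 2 with mock as the reference. Calls among all 14172 tested genes rose with mock as the reference as well. They went from 814 to 2441 for the Pparg pool, from 214 to 1624 for the Stat6 pool and from 129 to 1648 for the E2f1 pool. With no filter, mock against untransfected cells called 2817 of 24040 genes in M0 and 387 in M2-like cells. The cause was not tested.

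Among values called under at least 1 of the references, the sign with mock as the reference was opposite for Tlr7 (0.54) and Tlr9 (0.57) with the E2f1 pool, for Tlr3 (0.62), Tlr4 (0.03), Tlr7 (0.46) and Tlr9 (0.41) with the Myc pool, for Tlr7 (0.48) and Tlr9 (1.03) with the Pparg pool, and for Tlr3 (0.67) and Tlr9 (0.85) with the Stat6 pool. Signs of values called under neither reference are not listed.

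Leaving out 1 library gave 2 to 5 members for untransfected M2-like against M0 (6 reported), 2 to 4 for the negative pool against mock (4 reported) and 0 to 1 for the E2f1 and Pparg pools. Of 1440 single-gene values so obtained, 54 lost and 7 gained a call, and 0 called values turned sign. Tlr7 passed for M1-like against M0 at 24 h with technical replicates kept apart or only the compared conditions (adjusted p = 0.0249 and 0.0241). In the second experiment, samples share only a number (median correlation of deviations 0.18 over 198 pairs, lowest -0.25), and the replicate block added 5 calls over both experiments, among them Tlr9 in untransfected M2-like against M0 (adjusted p = 0.0346) and Tlr8 with the Pparg pool (adjusted p = 0.0205), and removed 0. Tlr5 rests on at most 15 reads a library and did not pass the filter with technical replicates kept apart.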
